A study of Mus musculus with 2 samples.

Results

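The Mir26 genes are 3 microRNA (miRNA) genes, Mir26a-1, Mir26a-2 and Mir26b, that lie inside genes of the Ctdsp family of phosphatases. They were picked by Ensembl identifier, with the version removed, from the gene table of each library. All 3 were found among the 1973 miRNA gene rows, and all 3 matched RefSeq hairpins of the same position. The libraries were small-RNA libraries of limb tissue from B6NCrl mouse embryos of both sexes at embryonic day 10.5, when the limb is a bud of mesenchyme under ectoderm. Both libraries were made from pooled embryos, 69 for replicate 1 and 51 for replicate 2, and the labels name no treatment and no altered allele. All samples belong to 1 group, so the comparisons are between genes and between the 2 libraries, and no test across samples was possible.

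A miRNA is cut from a hairpin RNA, and the hairpin can yield a mature RNA from its 5p arm and another from its 3p arm. Bases 2 to 8 of a mature miRNA, the seed, pair with target mRNAs, whose output then falls. The miR-26 family is broadly expressed, acts against proliferation in many tissues, and is known to repress Ezh2, the histone H3 lysine 27 methyltransferase. Its host genes encode small phosphatases that act on the tail of RNA polymerase II and help the repressor REST keep neural genes silent outside neurons. Ctdsp2 is itself a known target of miR-26 in neural differentiation.

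The mature sequences are shown because they set which reads a gene table can hold. They are RefSeq sequences on GRCm38.p6, written 5′ to 3′ with the seed in capitals.
miR-26a-5p, from Mir26a-1 and from Mir26a-2: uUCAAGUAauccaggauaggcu
miR-26b-5p, from Mir26b: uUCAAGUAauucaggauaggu
miR-26a-1-3p, from Mir26a-1: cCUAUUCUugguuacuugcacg
miR-26a-2-3p, from Mir26a-2: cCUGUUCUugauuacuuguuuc
miR-26b-3p, from Mir26b: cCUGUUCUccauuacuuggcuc
The 3 genes had 1 seed in the 5p arm, and no other gene of the RefSeq table carried that seed. Positions are counted from 1 at the 5′ end of the first-named arm. miR-26a-5p and miR-26b-5p were identical at 19 of 21 compared bases and differed by C11U and C21U, both outside the seed. The 3p arms differed more. miR-26a-1-3p and miR-26a-2-3p were identical at 16 of 22 bases, with the change A4G inside the seed, while miR-26a-2-3p and miR-26b-3p were identical at 18 of 22 bases and had the same seed. The RefSeq table held 2 more genes with that 3p seed, Mir6932 and Mir7039.

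The hairpins are shown to locate what the Mir26a genes have in common. Capitals mark the longest stretch shared by the Mir26a hairpins and, in Mir26b, the 5p arm.
Mir26a-1: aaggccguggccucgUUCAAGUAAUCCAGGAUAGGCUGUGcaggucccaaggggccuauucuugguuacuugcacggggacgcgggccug
Mir26a-2: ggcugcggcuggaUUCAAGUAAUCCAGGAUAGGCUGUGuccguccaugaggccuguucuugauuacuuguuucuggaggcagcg
Mir26b: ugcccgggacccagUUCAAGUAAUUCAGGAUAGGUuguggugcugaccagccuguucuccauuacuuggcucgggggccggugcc
The shared stretch was 25 bases long. It began at the first base of miR-26a-5p and ran 3 bases past its end, so the mature RNA lay wholly inside it. The longest stretch that Mir26b had in common with a Mir26a hairpin was 11 bases, with Mir26a-1, and 10 bases with Mir26a-2. Predicted folding energies were -49.4 kcal/mol for Mir26a-1 (90 bases), -44.5 for Mir26a-2 (84 bases) and -43.5 for Mir26b (85 bases).

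The windows of each hairpin showed which reads can be placed at 1 locus. Every window of 18 to 24 bases was searched in 2235 mouse hairpins. For miR-26a-5p, 35 windows that started within 2 bases of the arm's start were examined at each locus. Of these, 20 were held by both Mir26a hairpins and 15 by 1 of them. Of the 15, 14 started upstream of the arm, where the preceding base is G in Mir26a-1 and A in Mir26a-2, and 1 started at or after the arm's first base. All 35 windows of each 3p arm were held by 1 hairpin, and so were all 35 windows of miR-26b-5p. With 1 mismatch allowed, the arm miR-26a-5p still matched those 2 hairpins alone, and each of the other arms matched 1. A read of miR-26a-5p with its usual start therefore fits both Mir26a loci, whereas reads of both Mir26b arms and of the Mir26a 3p arms fit 1. The windows were also searched in 141767 annotated transcripts on both strands, but not in the whole genome. Of the 18-base windows of Mir26a-2, 8 were held by another hairpin and 9 by a transcript of another gene. No window of Mir26b was held by a transcript of another gene.

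**Figure D1:**
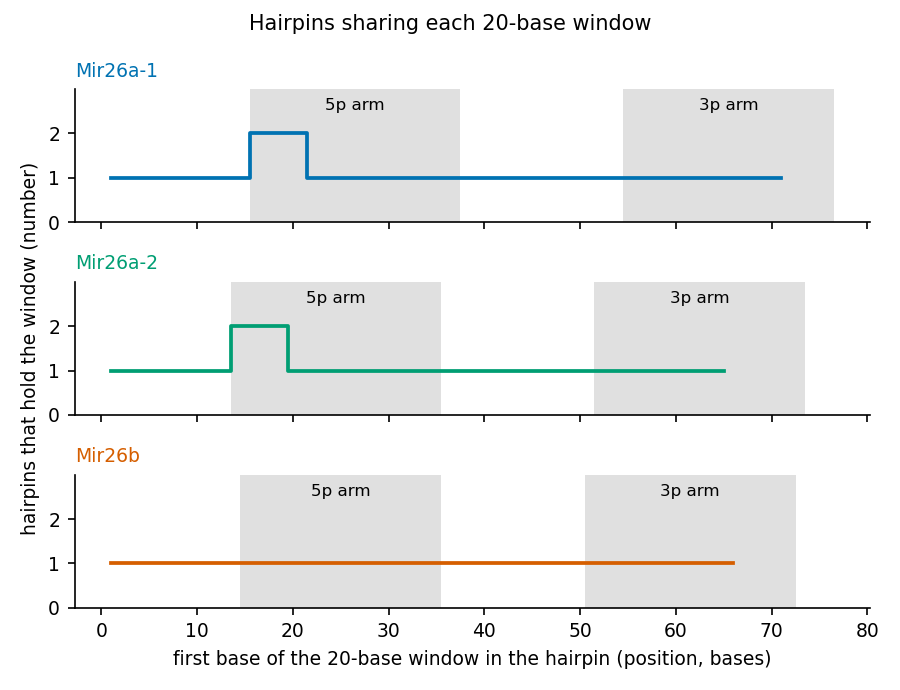
Number of hairpins (vertical axis) that hold each 20-base window, by the window's first base in the hairpin (horizontal axis, bases), for the 3 Mir26 genes, with grey bands for the mature arms. Windows that start at the front of the 5p arm are held by 2 hairpins for Mir26a-1 and Mir26a-2, and every window of Mir26b is held by 1.

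All 3 genes lie on the plus strand, as do their hosts. Mir26b (ENSMUSG00000065468) is at chr1:74394310-74394394, in intron 4 of 6 of the principal Ctdsp1 transcript of GENCODE. That intron is short, with 564 bases, and the hairpin sits 234 bases after one exon and 245 bases before the next. Mir26a-1 (ENSMUSG00000065513) is at chr9:119031796-119031885, in intron 5 of 7 of Ctdspl, an intron of 3283 bases. Mir26a-2 (ENSMUSG00000065430) is at chr10:126995530-126995613, in intron 5 of 7 of the principal Ctdsp2 transcript, 241 bases before the next exon. The last base of the Mir26a-2 hairpin is also the first base of 2 shorter annotated Ctdsp2 transcripts, an overlap of 1 base. The tables hold miRNA genes alone, so transcripts of the Ctdsp genes were not measured.

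Sense counts in miRNA genes came to 3581672 in replicate 1 and 3576482 in replicate 2, and CPM is counts per 1000000 of these. Each table has a row named as multimapping, with 32.3% and 31.2% of the mapped reads. These reads were taken as left out of the gene rows because they have a row of their own. No separate library total was available to check this. How the counting program defined that row, and whether reads of very many loci fell elsewhere, is not stated. The tissue label was set beside miRNA genes of known place. The 5 Mir10 and Mir196 genes, which lie in Hox clusters, summed to 181850 and 166542 CPM. The 5 neural marker genes with a row summed to 2.23 and 1.40 CPM, and Mir124a-1, Mir124a-2 and Mir124a-3 were at 0 counts. Those genes are multi-locus too, so this says little about their mature RNA. Endothelium (Mir126a) was at 26707 and 23683 CPM and the 7 epithelial genes summed to 12334 and 10775 CPM, so the tissue held several cell types. In such a mixture, few cells rich in a miRNA and many cells poor in it cannot be told apart.

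Mir26b was among the miRNA genes with the most counts in gene rows, which were taken to leave out multimapping reads. It had 67094 sense counts in replicate 1 and 74845 in replicate 2. These were 18733 CPM (95% exact binomial interval 18592 to 18874) and 20927 CPM (20779 to 21076), with a mean of 19830 ± 1552 CPM (SD, n = 2). Intervals cover only the counting error of reads within a library. PCR copies of a molecule are counted as separate reads, which makes the intervals too narrow. Mir26b alone took 1.87% of all sense counts in replicate 1 and 2.09% in replicate 2.

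Mir26a-1 and Mir26a-2 had few counts. Mir26a-1 had 27 counts in replicate 1 and 28 in replicate 2, a mean of 7.68 ± 0.205 CPM (SD, n = 2). Mir26a-2 had 109 and 96 counts, a mean of 28.6 ± 2.54 CPM. The ranges of the 3 genes did not overlap in these libraries. Their order was Mir26b, Mir26a-2, Mir26a-1 in both. At these counts the precision for Mir26a-1 was low, with intervals of 4.97 to 10.97 CPM and 5.20 to 11.3 CPM, but both libraries lay above the 0.838 and 0.839 CPM that a count of 0 allows. No antisense count was found at any of the 3 loci in either library. With detection set at 10 or more sense counts in both libraries, 3 of 3 Mir26 genes were detected, beside 17.6% of all gene rows.

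**Figure D2:**
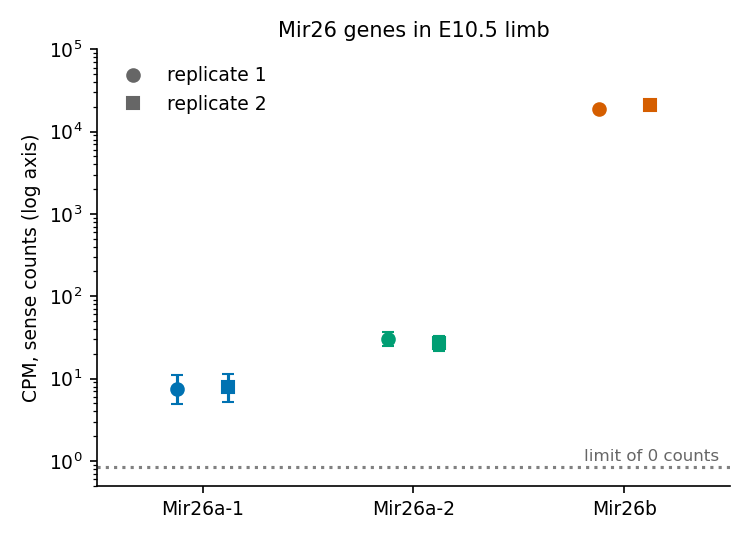
CPM of sense counts (log axis) for each Mir26 gene in replicate 1 (circles) and replicate 2 (squares), with 95% exact binomial intervals and a dotted line at the level a count of 0 allows. Mir26b sits at 18733 and 20927 CPM, Mir26a-2 at a mean of 28.6 CPM and Mir26a-1 at a mean of 7.68 CPM.

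By mean CPM the ranks were 12 for Mir26b, 250 for Mir26a-2 and 317 for Mir26a-1 of 1973 rows. These are ranks of counts in gene rows, where genes with an arm shared between loci can stand too low. The genes next to Mir26b in level were Mir99a, at 20709 ± 5259 CPM, and Mir130a, at 20106 ± 1321 CPM, just above it. Mir214, a mesenchymal gene, followed at 18552 ± 2773 CPM and Mir93 at 15558 ± 1593 CPM. Mir99a was below Mir26b in replicate 1 and above it in replicate 2. It was the only one of the 1973 genes whose order relative to Mir26b differed between the libraries. Mir130a was above Mir26b in both libraries, at 19172 against 18733 CPM and 21040 against 20927 CPM. Mir214 was below Mir26b in both, at 16591 and 20513 CPM. Their order was the same in the 2 libraries, but their means differed from that of Mir26b by less than the SD of either gene.

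For Mir26a-2 the genes next in level were Mir7689, Mir208b, Mir144 and Mir30c-2, from 25.4 to 28.9 CPM. The order relative to Mir26a-2 changed between the libraries for 17 genes, of ranks 200 to 263. For Mir26a-1 they were Mir1945, Mir7083, Mir128-2 and Mir1947, from 7.40 to 7.96 CPM, and the order changed for 24 genes, of ranks 247 to 333. Both Mir26a genes thus had a rank that the 2 libraries fix only within a wide band. Mir30c-2 and Mir128-2 are, like the Mir26a genes, genes with 1 arm shared with another locus and 1 arm of their own.

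**Figure D3:**
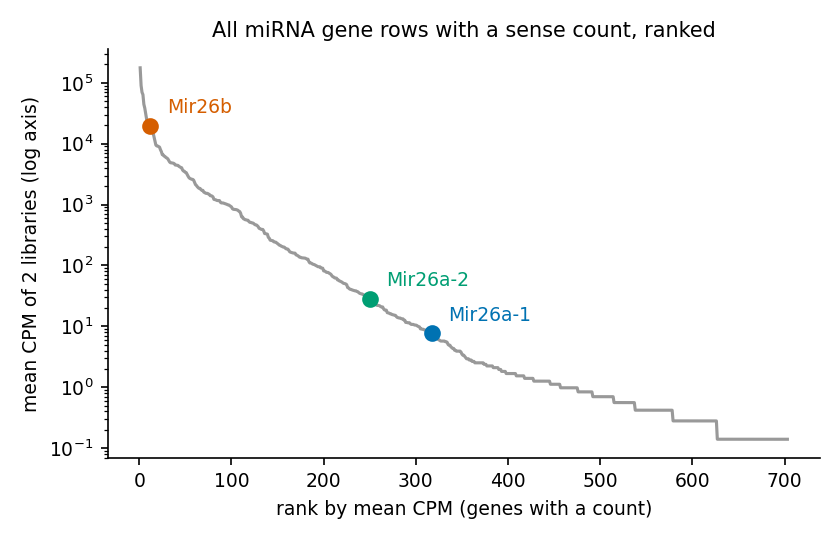
Mean CPM of the 2 libraries (log axis) against rank for every miRNA gene row with a sense count, with the Mir26 genes marked. Mir26b lies on the steep start of the curve at rank 12, and Mir26a-2 and Mir26a-1 lie on the long slope at ranks 250 and 317.

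Mir26b ranked high among miRNA genes with a host. Of 654 miRNA genes in introns of protein-coding genes on the same strand, with no overlap of an exon, Mir26b was the fourth, after Mir335 of the imprinted gene Mest, Mir10b in the Hoxd cluster and Mir99b of Spaca6. Mir30e, in the transcription factor gene Nfyc, came next at 15145 ± 3152 CPM. The median of the 654 genes was 0 CPM, and 131 (20.03%) were detected. That share was close to the 17.6% of all gene rows, 348 of 1973. Mir26a-1 took position 115 in the same list. Mir26a-2 left that list through its 1 base of exon overlap and took position 106 of 854 when exonic genes were included. Mir26b took position 6 in that longer list.

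The count tables put nearly all Mir26 reads at Mir26b. Mir26b held 99.80% (99.76 to 99.83) of the 67230 Mir26 counts in replicate 1 and 99.83% (99.80 to 99.86) of the 74969 in replicate 2. Mir26b was 493-fold (417 to 588) above both Mir26a genes together in replicate 1 and 604-fold (506 to 726) in replicate 2. With a prior count of 1 the log2 ratio was 8.94 and 9.23, a mean of 9.08 ± 0.21 (SD, n = 2). This difference was far larger than the spread between the libraries, and it needs no scaling because both counts come from 1 library. It compares reads placed at 1 locus, as far as gene rows leave out multimapping reads. It does not compare the mature RNAs miR-26b-5p and miR-26a-5p, since gene rows without multimapping reads hold the latter only where a read starts or ends outside the shared stretch.

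The reads of the multimapping row were numerous enough to change the order. Reads in the multimapping row numbered 2202818 in replicate 1 and 1831161 in replicate 2, which is 32.8 and 24.5 such reads for every Mir26b count. Suppose that row holds the reads that fit several loci, as its name says, and that gene rows leave them out. Had 3.04% of them in replicate 1 and 4.08% in replicate 2 been miR-26a-5p, the Mir26a genes together would have equalled Mir26b. That share was not measured, and the same reads also come from other genes: of the 916 gene rows with RefSeq arms, 56 had some arms and 46 all arms in common with another locus. Whether the limb held more miR-26b-5p or more miR-26a-5p is therefore not given by these tables. If gene rows leave those reads out, the total of the family is a lower limit.

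The Mir26a genes also differed from each other. Mir26a-2 was 4.04-fold above Mir26a-1 in replicate 1 and 3.43-fold in replicate 2. The log2 ratio of Mir26a-1 to Mir26a-2 was -1.97 (-2.68 to -1.39) and -1.74 (-2.44 to -1.16), a mean of -1.86 ± 0.16 (SD, n = 2), and both intervals lay below 0. The counts behind it can come from 3p reads or 5p reads with shifted ends, which a table per hairpin does not separate. The ratio thus describes neither the transcripts of Ctdspl and Ctdsp2 nor the share of miR-26a-5p from each locus.

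Other families were set beside Mir26, 9 in number, each with a gene, or a pair of genes in Mir181, that had no shared arm and with relatives named as copies of each other. The counts of the former were above those of the relatives together in both libraries in 8 of the 9 and below in 1. Their median log2 ratio was 3.15, from -4.36 to 7.42, and the 9.08 of Mir26 lay above all of them. Closest was Mir135b over Mir135a-1 and Mir135a-2, with 2747 against 19 counts in replicate 1 and 3395 against 15 in replicate 2, log2 ratios of 7.10 (6.53 to 7.91) and 7.73 (7.10 to 8.66). The Mir26 interval did not overlap that of Mir135 in either library, with lower bounds of 8.70 and 8.98. Mir196b, a gene of the Hoxa cluster, was above the Mir196a genes by 4.99 ± 0.11. Mir107 was above the Mir103 genes by 3.15 ± 0.08.

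In the remaining families the ratio was smaller or rested on few counts. It was 1.43 ± 0.81 for Mir125, 0.99 ± 0.07 for Mir181 and 0.84 ± 0.38 for Mir19. Mir29 had 42 against 4 counts in replicate 1 and 40 against 2 in replicate 2, and Mir133b had 4 and 25 counts against 0. Counts of that size in the gene with no shared arm cap the ratio below that of Mir26, even against 0 counts. Mir92 was the exception. Mir92b had 1844 and 1378 counts, and Mir92-1 and Mir92-2 together had 47068 and 22910, a log2 ratio of -4.36 ± 0.44. A multi-locus gene with 1 arm of its own can therefore hold many counts. Which arm those counts came from was not measured. The Mir199 family was also listed, but Mir199b shares its arm with the Mir199a genes, so its ratio of 1.94 ± 0.22 compares shared with shared sequence and is not among the 9. Of the 56 genes with some arms shared, Mir92-1 had the highest level at 9144 CPM, the median was 17.6 CPM, and Mir26a-2 and Mir26a-1 took positions 26 and 34. Among the 814 genes with no shared arm, Mir26b took position 12. The Mir26a genes thus lay in the middle part of their class, and Mir26b lay near the top of its own. These classes rest on the RefSeq arms listed for each gene. A gene with 1 listed arm, such as Mirlet7a-2 or Mir1a-1, can share an arm that was not listed.

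**Figure D4:**
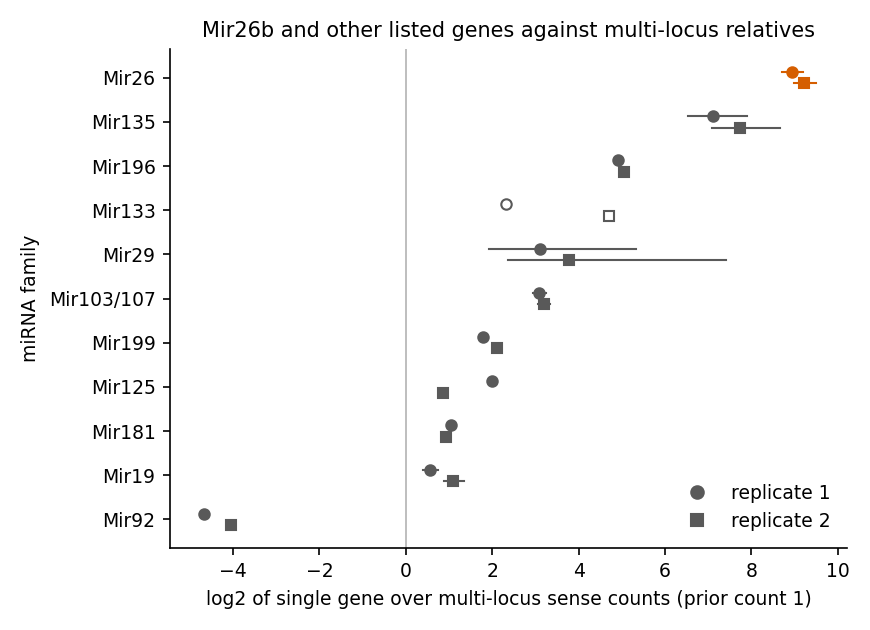
Log2 ratio of sense counts of the single gene, or the pair in Mir181, over the multi-locus relatives together (horizontal axis, prior count of 1) in 11 miRNA families (vertical axis, with Mir199, whose single gene also has a shared arm), with replicate 1 as circles, replicate 2 as squares and 95% exact binomial intervals as lines. Open symbols mark Mir133, whose relatives had 0 counts, so its ratio depends on the prior count, and Mir26 stands at the top with 8.94 and 9.23.

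A list of 10 other miRNA genes reported to repress Ezh2, which is not complete, was set beside Mir26. All 10 were detected, beside 17.6% of all gene rows. By class, 275 of 814 genes with no shared arm were detected, 36 of 56 with some and 6 of 46 with all arms shared. The list was chosen with earlier results of these data known, so its detection is no test against those shares. Each of the 10 genes had fewer counts than Mir26b in both libraries, though Mir214 only by the small margin given above. Mir214 was the most abundant of them, at 16591 and 20513 CPM. Mirlet7g, of the let-7 family that rises as cells differentiate, had 3240 and 5259 CPM, and Mirlet7i had 1834 and 3686 CPM. Mir101b had 1786 and 1645 CPM, and its relative Mir101a 86.8 and 66.3 CPM. Mir138-1, Mir138-2, Mirlet7a-1 and Mirlet7c-1, all with an arm shared between loci, had 16.1 to 77.1 CPM on average, and Mirlet7b had 7.13 CPM with no arm shared. The median of the list was 76.8 CPM, beside 0 CPM over all gene rows. As for the Mir26a genes, the counts of the 4 genes with shared arms give no level of their mature RNA. Ezh2 itself was not measured.

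Between the libraries the Mir26 genes differed little. The log2 ratio of replicate 2 to replicate 1 was 0.16 (0.14 to 0.17) for Mir26b, 0.05 (-0.76 to 0.87) for Mir26a-1 and -0.18 (-0.59 to 0.23) for Mir26a-2. The last turned to 0.11 with edgeR's TMM factors, 0.10 with DESeq2's size factors and 0.0095 when scaled by all uniquely placed reads. None of the 3 differed by 2-fold, beside 10.8% of the 250 genes whose counts averaged 100 or more, a set that holds Mir26a-2 and Mir26b but not Mir26a-1. The median of those 250 genes was -0.27 and their SD 0.66, and TMM factors shifted every gene by 0.29. Relative to that median, Mir26b was higher in replicate 2 by 0.43, Mir26a-1 by 0.32 and Mir26a-2 by 0.09, each less than 1 SD of the genes. For Mir26b the interval excluded 0. It treats PCR copies as separate reads, so a difference beyond the counting error of molecules was not shown. A larger ratio was found in 54 of the 250 genes. For the Mir26a genes a difference between libraries was not detectable at this depth.

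**Figure D5:**
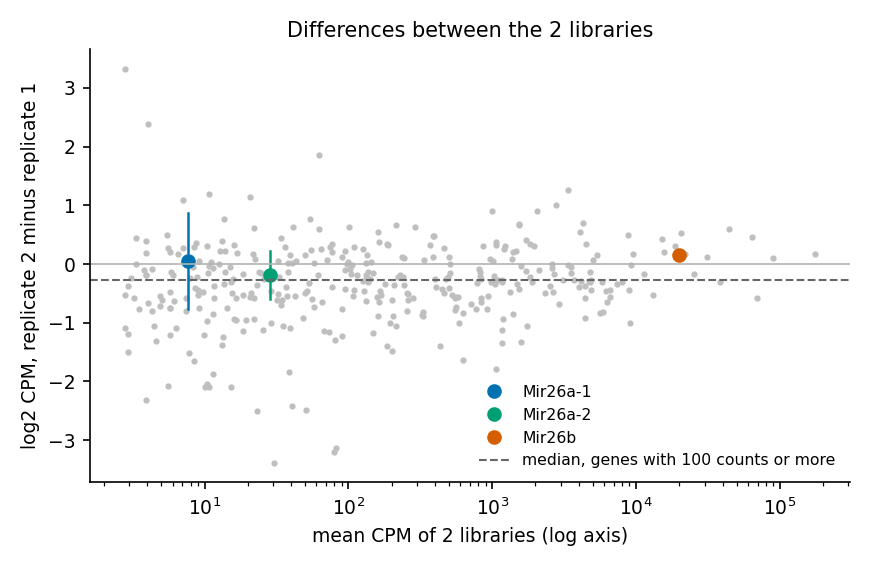
Log2 CPM of replicate 2 minus replicate 1 (vertical axis) against mean CPM (log axis) for genes whose counts averaged 10 or more (grey) and the Mir26 genes (coloured, with 95% exact binomial intervals). The dashed line is the median where counts averaged 100 or more, at -0.27, and the 3 Mir26 genes lie above it.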

How the data were processed

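Small-RNA libraries of E10.5 limb were deposited as 1 table of raw read counts per miRNA gene and library, not normalized. Per the deposited readme texts, the authors aligned reads to mm10 and counted them over GENCODE M4. Which aligner, counter and trimming were used is not given in the sources used here. Each deposited table holds 3 count columns, for both strands, sense and antisense, and rows that are not genes, among them unmapped and multimapping reads. Sense counts were used, and CPM was computed over all gene rows. Symbols, coordinates (1-based) and hosts came from GENCODE M21 (GRCm38, which is mm10). Of the 1973 identifiers, 79 had no symbol. Sequences came from RefSeq (GRCm38.p6). Hairpins searched were 2202 of GENCODE and 33 more of RefSeq. Folding energies used ViennaRNA 2.7.2. Log2 ratios carry a prior count of 1. Intervals are 95% exact binomial. Replicates were separate pools per the labels. Alternatives were edgeR 4.0.16 TMM factors, DESeq2 1.42.0 size factors, all uniquely placed reads, both strands, priors of 0.5 and 5, and leaving out a library. Ratios between libraries were set beside genes averaging 100 counts or more. The genes named were the members, the 2 genes above and 2 below each in level, and the listed families, Ezh2 list and marker genes. Leading hosted genes and the top genes of a class were named after their values were seen. The members and lists were chosen with earlier results of these data known. Mir142 and Mir9-1 of the marker lists were not analysed here. The functions were tested on simulated data. R 4.3.3, Python 3.11.15, numpy 2.4.6, pandas 2.3.3, scipy 1.17.1 and matplotlib 3.10.9 were used.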

Additional observations from a re-analysis of the deposited data

How the results depend on the processing

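The log2 ratios of Mir26b to the Mir26a genes and of Mir26a-1 to Mir26a-2 kept their direction under every prior count and in each library alone, from 8.94 to 9.23 and from -1.97 to -1.72. No scaling enters them. At these counts a prior of 0.5 or 5 could not turn their direction, so the prior settings are no test of it. Scaling by all uniquely placed reads lowered the levels to 16527 CPM for Mir26b, 23.7 for Mir26a-2 and 6.39 for Mir26a-1, since the denominator is larger. The log2 ratio between libraries of Mir26b rose from 0.16 to 0.45 with TMM factors, 0.44 with DESeq2 size factors and 0.35 with all uniquely placed reads. That of Mir26a-2 reversed to 0.11, 0.10 and 0.0095 under the same settings, inside its counting interval. By single library the ranks ran from 11 to 12 for Mir26b, 238 to 250 for Mir26a-2 and 300 to 319 for Mir26a-1, and with both strands together Mir26a-2 ranked 259. With at least 100 counts required in both libraries, 1 of the 3 genes was detected, Mir26b. Leaving out 1 of 2 libraries moves a mean by less than their SD by construction, and the within-library ratios cannot move with both strands because antisense counts were 0, so these settings say nothing about stability. Depth limits the Mir26a genes, and reads of shared sequence cannot be restored by any setting. No paired analysis was possible because there was 1 group.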
